A study of Mus musculus with 5 samples.

Results

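DNA methylation in mammals is a cycle of writing, erasing and reading of a methyl group on cytosine, mostly where cytosine is followed by guanine (a CpG). Dnmt3a and Dnmt3b place new methyl groups, and Dnmt1 copies them onto the new strand after replication, brought there by Uhrf1, which recognises hemimethylated DNA. Tet1, Tet2 and Tet3 oxidise the methyl group, Tdg cuts out the most oxidised forms of the base so that repair can put back cytosine, and Mbd3 is a methyl-CpG-binding-domain protein of the NuRD chromatin remodelling complex. In neural stem cells these enzymes are known for their part in self-renewal and in the choice between neurons and glia.

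The 9 genes named here, namely Dnmt1, Dnmt3a, Dnmt3b, Uhrf1, Tet1, Tet2, Tet3, Tdg and Mbd3, were taken by symbol from the tables of 46078 genes per library. Each symbol had a single gene, all 9 had a mean of at least 1 TPM (a level corrected for gene length, with each library brought to a common total), as did 13870 genes in all, and 7 of the 9 were also among the 7599 genes of the deposited count table. The table used here does not list Tet1 and Tet2. Expression was measured in 5 poly-A libraries of primary neural precursor cells from the subventricular zone, the stem cell niche beside the lateral ventricles of the forebrain. The cells came from C57BL/6 mice labelled as female, aged 5 to 8 weeks and carrying no mutation. The study's methods give an older age than the labels and name a substrain, and which of them holds for these libraries is not known. All cells received a PBS sham exposure on poly-D-lysine coated plates, and RNA was taken at 1 h (replicates 1 and 2) or at 8 h (replicates 13, 14 and 15). The cells were a culture expanded from dissected tissue, and none of the libraries was exposed to hydrogen peroxide.

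Before the results, 3 facts on the libraries have to be stated. First, the library identifiers form 2 number series. The 1 h replicates and 8 h replicate 14 belong to series 1, and 8 h replicates 13 and 15 to series 2, and what a series stands for is not stated in the labels or the methods. The 3 libraries of series 1 went against the label of female mice, with at most 0.0611 TPM of the X-inactivation RNA Xist and between 137.6 and 180.9 TPM summed over 4 Y chromosome genes. The libraries of series 2 had 165.3 and 199.7 TPM of Xist and at most 0.0253 TPM of the Y genes. Sex, identifier series and, in part, time therefore cannot be told apart. Second, the 10 neural stem cell genes examined, with Nes, Sox2 and Fabp7 among them, all had a mean of at least 1 TPM, which is what the label asks for, and 8 of the 10 were higher in both libraries of series 2 than in the 3 of series 1 (beside 39.8% of all genes). Of 5 microglial genes 0 had, and Aif1 and Tmem119 were listed at 0 in every library. Of 5 endothelial genes 1 had, with Cldn5 and Cdh5 listed at 0, and of 4 ependymal genes 1 had, with Tmem212 listed at 0. The ependymal genes, mostly Foxj1, summed to 23.7 and 27.5 TPM at 1 h and to between 16.3 and 18.8 TPM at 8 h. The 5 oligodendrocyte genes, of which 4 had a mean of at least 1 TPM, summed to between 115.1 and 167.3 TPM in series 1 and to 40.1 and 76.9 TPM in series 2. The 5 neuronal genes, all with a mean of at least 1 TPM, summed to between 62.4 and 68.3 TPM in series 1 and to 43.2 and 46.4 TPM in series 2. The part of these cell types in the results below was not tested. Last, the count columns did not all match the TPM tables of the same name. The column named 8 h replicate 13 matched the TPM table of 8 h replicate 14 for 78.3% of 6860 genes within 0.1 log2 and its own for 26.1%. The column named 8 h replicate 15 matched the table of 8 h replicate 13 for 76.9% and its own for 40.9%. The column named 8 h replicate 14 matched that of 1 h replicate 2 best, for 38.2%, and its own for 26.4%. No column compared matched the table of 8 h replicate 15 for more than 40.9%. Matches were taken relative to 1 h replicate 1, whose column and table were assumed to belong together and were not themselves compared. Levels and tests below are therefore those of the TPM tables, with counts given as a second readout.

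The promoters of 4 members whose levels moved together or apart between libraries are shown first, as the 250 bases before and 50 after a transcription start listed by RefSeq on GRCm38.p6. Each is printed 5′ to 3′ on the strand of the gene, with every CpG, the substrate of these enzymes, in capitals. RefSeq lists 3 starts for Dnmt1 and 2 for Uhrf1, and the one with the most CpGs is printed for each. The tables per gene do not tell which start was used.
Dnmt1, chr9:20952574-20952873, minus strand: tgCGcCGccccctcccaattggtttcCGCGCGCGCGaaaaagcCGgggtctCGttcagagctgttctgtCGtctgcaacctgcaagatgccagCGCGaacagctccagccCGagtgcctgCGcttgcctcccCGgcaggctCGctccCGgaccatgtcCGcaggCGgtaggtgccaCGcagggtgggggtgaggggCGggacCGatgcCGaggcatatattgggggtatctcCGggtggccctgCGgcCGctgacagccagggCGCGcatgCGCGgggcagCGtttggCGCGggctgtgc
Uhrf1, chr17:56304063-56304362, plus strand: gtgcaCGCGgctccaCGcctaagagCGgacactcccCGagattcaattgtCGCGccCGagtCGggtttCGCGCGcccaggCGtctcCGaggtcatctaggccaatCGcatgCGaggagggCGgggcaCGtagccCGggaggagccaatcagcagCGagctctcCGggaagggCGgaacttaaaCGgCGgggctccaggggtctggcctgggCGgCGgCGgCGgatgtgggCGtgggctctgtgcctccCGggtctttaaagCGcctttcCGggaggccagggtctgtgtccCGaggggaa
Tet1, chr10:62887275-62887574, minus strand: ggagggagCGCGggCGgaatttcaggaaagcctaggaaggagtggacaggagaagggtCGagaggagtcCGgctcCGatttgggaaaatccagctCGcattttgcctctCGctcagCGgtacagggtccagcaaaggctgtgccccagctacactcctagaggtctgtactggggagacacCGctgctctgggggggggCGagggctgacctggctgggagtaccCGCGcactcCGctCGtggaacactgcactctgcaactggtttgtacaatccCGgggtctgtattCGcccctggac
Tet2, chr3:133544341-133544640, minus strand: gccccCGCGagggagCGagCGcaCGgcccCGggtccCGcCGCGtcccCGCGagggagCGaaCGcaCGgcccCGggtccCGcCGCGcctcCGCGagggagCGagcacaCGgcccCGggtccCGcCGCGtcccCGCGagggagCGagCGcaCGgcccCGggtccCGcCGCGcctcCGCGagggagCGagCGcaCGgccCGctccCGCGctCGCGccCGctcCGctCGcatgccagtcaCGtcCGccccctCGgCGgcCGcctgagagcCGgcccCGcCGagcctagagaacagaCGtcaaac

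These windows held 33 CpGs in Dnmt1, 33 in Uhrf1, 17 in Tet1 and 57 in Tet2, with a median of 7 over the 32851 promoters in the RefSeq table. The Dnmt1 and Uhrf1 windows were chosen for their CpGs, and the Uhrf1 start nearest the 5′ end of the gene had 12. The Tet2 window had more CpGs than 99.8% of all promoters, and a run of near-identical repeats is visible in its first part. Dnmt1 was the member with the widest spread between its starts, since the start at the 5′ end of the gene had 2 CpGs and the one printed, 7265 bases further into the gene, had 33. Among the other members the CpG count ran from 18 in the innermost of the 3 Dnmt3a starts to 47 in another Dnmt3a start, with 30 in Dnmt3b, 22 in Tet3, 26 in Tdg and 22 in Mbd3. The letters TTTNNCGC, the core of the motif of the E2F factors that control S phase genes, were searched on both strands. They were found in 5.17% of all promoters and in 3 of the 14 promoters of the members, namely the Dnmt1 promoter shown and both of Uhrf1. The letters hold a CpG, and most promoters of the members had more CpGs than the median of 7. The share over all promoters is therefore not a like background for them. The stricter form TTTGGCGC was in 1 of the 14 (0.514% of all promoters) and TTTCCCGC in 0 (1.07%). In the Dnmt1 window shown they read TTTGGCGC at bases 34 to 41 after the start, and TTTCGCGC and TTTTTCGC overlap on the opposite strand at bases -219 to -210. In the Uhrf1 window shown they read TTTCGCGC at bases -185 to -178, and in that of the other Uhrf1 start TTTCTCGC at bases -56 to -49. A match of letters is a description of the sequence and does not show that a factor binds there.

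The levels of the members spanned a wide range, from Mbd3, above 95.7% of the 13870 genes, to Dnmt3b, above 8.04% of them. Mbd3 (ENSMUSG00000035478, chromosome 10, 80392539 to 80399550 on GRCm38, minus strand, protein coding) had the highest mean, 239.3 ± 36.3 TPM (SD, n = 5). Dnmt1 (ENSMUSG00000004099, chromosome 9, 20907206 to 20959888) followed with 119.2 ± 13.5 TPM. Uhrf1 (ENSMUSG00000001228, chromosome 17, 56303321 to 56323486) had 85.7 ± 26.1 TPM and Tdg (ENSMUSG00000034674, chromosome 10, 82629828 to 82650799) had 78.2 ± 7.20 TPM. The de novo enzyme Dnmt3a (ENSMUSG00000020661, chromosome 12, 3806007 to 3914443) had 40.3 ± 3.97 TPM. Tet3 (ENSMUSG00000034832, chromosome 6, 83362373 to 83459084) had 30.5 ± 1.84 TPM, the steadiest level of the 9, with a coefficient of variation of 6.05%. Tet2 (ENSMUSG00000040943, chromosome 3, 133463679 to 133545139) had 12.8 ± 4.06 TPM and Tet1 (ENSMUSG00000047146, chromosome 10, 62804570 to 62899118) had 9.87 ± 1.51 TPM. Dnmt3b (ENSMUSG00000027478, chromosome 2, 153649450 to 153687730) was lowest with 1.91 ± 0.397 TPM.

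Most steps of this order were larger than the spread between libraries. Mbd3 was above Dnmt1, Tdg above Dnmt3a, Dnmt3a above Tet3, Tet3 above Tet2 and Tet1 above Dnmt3b with ranges that did not overlap. Dnmt1 was above Uhrf1 in 5 of 5 libraries although the ranges overlapped. Neighbours that did not differ beyond their spread were Uhrf1 and Tdg, and Tet2 and Tet1, each with the first gene higher in 3 of 5 libraries. In both pairs the gene that was higher depended on the library. Uhrf1 was above Tdg in 1 h replicate 2 and in 8 h replicates 13 and 15, and below it in the others. The order of Tet2 and Tet1 is described below. Genes that overlap a member in the annotation had a mean of at most 0.273 TPM where the tables list them.

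**Figure D1:**
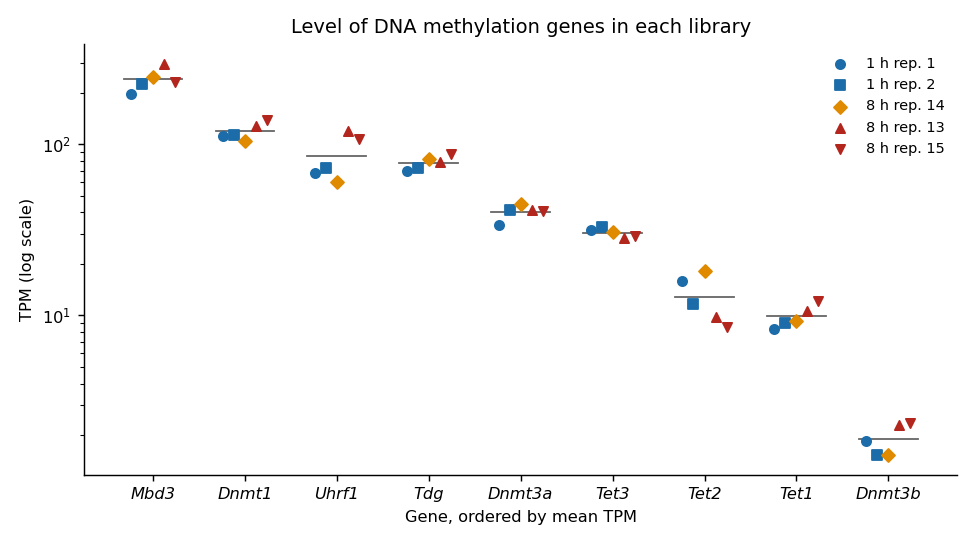
TPM on a log axis of the 9 genes in each of the 5 libraries, with the mean of all libraries as a grey line. Levels fall from Mbd3 with 239.3 TPM to Dnmt3b with 1.91 TPM, and Uhrf1 and Tet2 show the widest spread between libraries.

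The comparison of 8 h with 1 h asked whether the transcripts of the methylation cycle changed with the time after sham exposure. None of the 9 genes was called with limma on log2(TPM + 1) (0 of 9, where a call needs an adjusted p no higher than 0.05 over 13870 genes together with an absolute log2 fold change above 1), and 0 of 9 had an unadjusted p under 0.05. Over all genes 6 were called (0.0433%), and 12.3% had an unadjusted p under 0.05. The members' log2 fold changes lay between -0.21 (Tet2) and 0.37 (Uhrf1), with a median of 0.18 beside 0.10 for all genes. They were higher at 8 h for 7 of 9 members, beside 65.9% of all genes. From counts, 3 of 7 members were higher and 4 lower, with a median of -0.030. Dnmt1 (-0.067), Dnmt3a (-0.057) and Tdg (-0.030) had the opposite sign from that on TPM (edgeR log2 fold changes, none past the test). As stated above, the columns named 8 h cannot be taken for the same libraries as the TPM values. Median-ratio scaling moved the median of all genes by -0.11 and left 49.2% of them higher at 8 h, so changes are also given relative to that median. Groups did not overlap for 4 of 9 members, beside 33.1% of all genes, with Tet1, Tdg and Mbd3 higher at 8 h (3 of 9, beside 23.7%) and Tet3 lower (1 of 9, beside 9.43%). The count table gave 0 of 7 members with edgeR, DESeq2 and limma-voom alike under the same call rule, and 0 of 7 with an unadjusted p under 0.05 in each of these. Over all genes of that table edgeR called 0 (0%), and 2.62% had an unadjusted p under 0.05. With 2 and 3 libraries, log2 fold changes up to the bounds of the intervals given below were not excluded for a member. In these bulk samples fewer cells of a type and less RNA per cell cannot be told apart.

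Among the writers, Dnmt1, the maintenance methyltransferase, stood at 111.1 and 113.8 TPM after 1 h, against 128.1, 105.05 and 138.05 TPM after 8 h (replicates 13, 14 and 15). The 8 h libraries thus lay on both sides of the 1 h libraries, and the lowest and the highest value were both from 8 h. The log2 fold change came to 0.13 ± 0.14 (limma, SE, adjusted p = 0.65, 95% interval -0.20 to 0.46), 0.025 once the median of all genes was taken off. Dnmt3a stood at 33.7 and 41.2 TPM after 1 h, against 41.2, 44.6 and 40.7 TPM after 8 h in the same order. Only 1 h replicate 1 was set apart, below the other 4 libraries. The 8 h against 1 h log2 difference was 0.17 ± 0.12 (limma, SE, adjusted p = 0.531, 95% interval -0.13 to 0.48). Dnmt3b, the de novo enzyme known mainly from early embryos, stood at 1.85 and 1.53 TPM after 1 h, against 2.29, 1.53 and 2.34 TPM after 8 h. Replicates 13 and 15 were the highest, and 8 h replicate 14 was beside the lower 1 h library. This made a log2 fold change of 0.18 ± 0.21 (limma, SE, adjusted p = 0.685, 95% interval -0.34 to 0.69), which the pseudocount of 1 holds down at so low a level. The count table held between 45 and 92 reads of Dnmt3b per column and gave a log2 fold change of 0.47 ± 0.34 (edgeR, SE, adjusted p = 0.966).

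The 3 methyltransferases differed far more from each other than between libraries. Dnmt1 made up between 69.5% and 76.2% of their summed TPM, Dnmt3a between 22.5% and 29.5%, and Dnmt3b between 0.975% and 1.34%. Dnmt3a exceeded Dnmt3b by between 17.4 and 29.2 times in a library. Dnmt3l, the catalytically inactive partner of the de novo enzymes in germ cells, was listed at 0 TPM in all 5 libraries.

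Uhrf1, which guides Dnmt1 to replicated DNA, had the largest fold change of the members on TPM over all 5 libraries, though not in the count table, where Dnmt3b had, nor within series 1 alone, where Tet2 had. It stood at 68.3 and 73.1 TPM after 1 h, against 119.0, 60.03 and 107.95 TPM after 8 h (replicates 13, 14 and 15). Replicates 13 and 15 were well above the 1 h libraries and replicate 14 was below them, so the groups overlapped. The log2 fold change came to 0.37 ± 0.29 (limma, SE, adjusted p = 0.557, 95% interval -0.34 to 1.09), 0.27 once that median was taken off. Without 8 h replicate 14 it was 0.67 ± 0.096 (limma, SE, adjusted p = 0.0102), short of the fold change threshold. In that set of 4 libraries time and identifier series cannot be told apart, 0 of 9 members were called (beside 4.1% of all genes), Uhrf1 alone of the members passed on adjusted p at any fold change (1 of 9, beside 19.9%), and Dnmt1, Uhrf1, Tet1 and Tet2 had an unadjusted p under 0.05 (4 of 9, beside 37.4%). With the identifier series as a term in the fit, 0 of 9 members had an unadjusted p under 0.05, beside 9.06% of all genes. Within series 1 alone the log2 fold change of Uhrf1 was -0.23 ± 0.12 (limma, SE, adjusted p = 0.704), with the lone 8 h library assumed to vary like the 1 h group. In the count table Uhrf1 had 163.7 and 178.6 CPM (counts scaled to the column total) at 1 h and 145.03, 204.6 and 265.02 CPM in the columns named 8 h replicates 13, 14 and 15. The column that matched the TPM table of 8 h replicate 14 was again the lowest and the column that matched that of 8 h replicate 13 the highest. From counts the log2 fold change was 0.23 ± 0.24 (edgeR, SE, adjusted p = 0.966).

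Among the erasers, Tet1 and Tet2 had fold changes of opposite sign, neither of which passed the test. Tet1 stood at 8.33 and 8.99 TPM after 1 h, against 10.6, 9.31 and 12.1 TPM after 8 h (replicates 13, 14 and 15). All 8 h values were above both 1 h values, though replicate 14 by little. The 8 h against 1 h log2 difference was 0.27 ± 0.16 (limma, SE, adjusted p = 0.475, 95% interval -0.11 to 0.65). Tet2 stood at 15.8 and 11.7 TPM after 1 h, against 9.85, 18.2 and 8.60 TPM after 8 h. Replicates 13 and 15 were lowest and replicate 14 was highest of all libraries. This made a log2 fold change of -0.21 ± 0.32 (limma, SE, adjusted p = 0.755, 95% interval -1.01 to 0.58), -0.32 once that median was taken off. Within series 1 alone Tet2 had a log2 fold change of 0.39 ± 0.22 and without 8 h replicate 14 one of -0.52 ± 0.17 (limma, SE, adjusted p = 0.723 and 0.0856).

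Tet3, the most abundant of the 3 oxidases, stood at 31.4 and 32.9 TPM after 1 h, against 28.2, 30.5 and 29.2 TPM after 8 h (replicates 13, 14 and 15). Every 8 h library was below both 1 h libraries, by a small step. The log2 fold change came to -0.13 ± 0.10 (limma, SE, adjusted p = 0.557, 95% interval -0.38 to 0.12). In the count table it had 229.3 and 247.5 CPM at 1 h and 226.8, 217.2 and 189.3 CPM in the columns named 8 h replicates 13, 14 and 15. These did not overlap either. The column named 8 h replicate 14 matched none of the TPM tables compared with it, so the columns cannot be taken for the same 3 libraries. That table gave a log2 fold change of -0.20 ± 0.12 (edgeR, SE, adjusted p = 0.966), and groups did not overlap there for 18.7% of its genes. Tdg, the glycosylase, stood at 69.7 and 72.6 TPM after 1 h, against 78.7, 82.5 and 87.4 TPM after 8 h, with all 8 h libraries higher. The 8 h against 1 h log2 difference was 0.22 ± 0.095 (limma, SE, adjusted p = 0.41, 95% interval -0.017 to 0.45). The counts of Tdg did not show that separation, with 242.6 and 220.3 CPM at 1 h and 223.2, 224.6 and 244.9 CPM in the columns so named. As for Tet3, these columns cannot be taken for the same 3 libraries.

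The 3 TET genes summed to between 53.6 and 58.02 TPM in series 1 and to 48.6 and 49.9 TPM in series 2. Within that sum Tet3 held between 52.6% and 61.4%. Tet2 held between 21.8% and 31.4% in series 1 and 20.2% and 17.2% in 8 h replicates 13 and 15, while Tet1 held between 15.0% and 16.8% in series 1 and 21.7% and 24.3% in series 2. Tet2 was thus between 1.30 and 1.95 times Tet1 in series 1 and 0.932 and 0.709 times Tet1 in series 2. The order of the pair differed between the series, and 8 h replicate 14 had the order of the 1 h libraries. The part of time, sex or series in this was not tested.

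**Figure D2:**
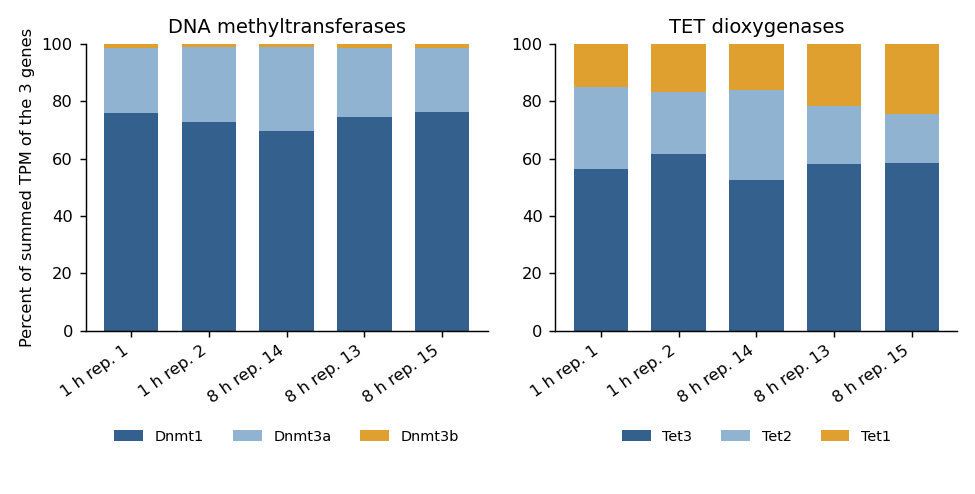
Stacked bars of the percent that each gene holds of the summed TPM of the 3 DNA methyltransferases (left) and of the 3 TET dioxygenases (right), by library. Dnmt3b holds at most 1.34% in any library, and the Tet1 share is 21.7% and 24.3% in 8 h replicates 13 and 15 and at most 16.8% in the others.

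Mbd3, the methyl-CpG-binding-domain protein of NuRD, stood at 197.8 and 225.8 TPM after 1 h, against 295.9, 247.5 and 229.5 TPM after 8 h (replicates 13, 14 and 15). All 8 h libraries were above both 1 h libraries, and replicate 15 exceeded 1 h replicate 2 by little. This made a log2 fold change of 0.28 ± 0.14 (limma, SE, adjusted p = 0.434, 95% interval -0.061 to 0.61). In the count table the values overlapped, with 263.4 and 297.6 CPM at 1 h and 266.6, 321.5 and 297.7 CPM in the columns so named, and the log2 fold change was 0.046 ± 0.12 (edgeR, SE, adjusted p = 0.979). Here too the columns named 8 h cannot be taken for the same libraries as the TPM values.

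**Figure D3:**
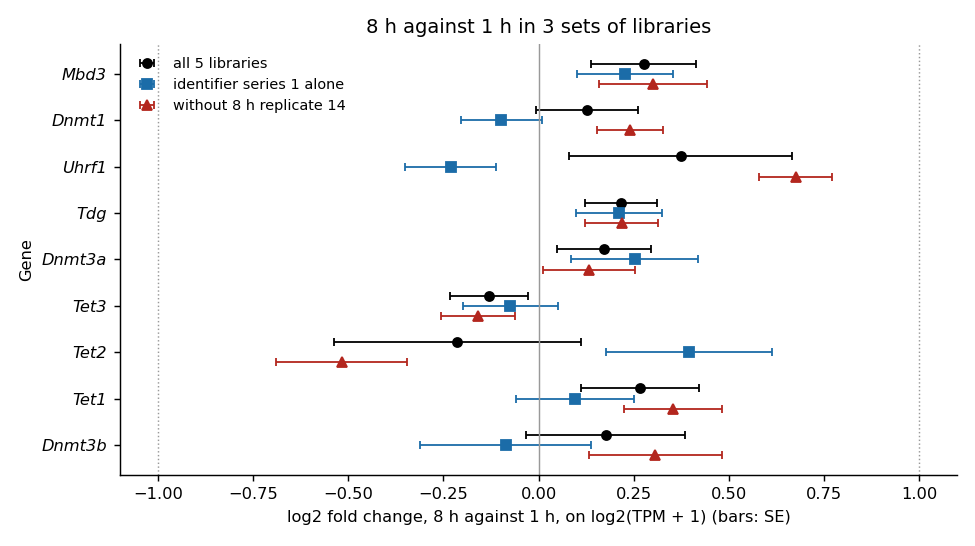
Log2 fold change of 8 h against 1 h on the log2(TPM + 1) scale for each gene, with bars of 1 SE, from all 5 libraries, from identifier series 1 alone and without 8 h replicate 14. All points lie within the dotted lines at -1 and 1, and those of Uhrf1, Dnmt1, Dnmt3b and Tet2 change side between the last 2 sets of libraries.

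The identifier series divided the members more often than time did, as it did the genes at large. Values of series 2 and series 1 did not overlap for 6 of 9 members, beside 53.3% of all genes. Both libraries of series 2 were above the 3 of series 1 for Dnmt1, Dnmt3b, Uhrf1 and Tet1 (4 of 9, beside 39.8%), and both were below for Tet2 and Tet3 (2 of 9, beside 13.5%). Dnmt3a, Tdg and Mbd3 overlapped. Uhrf1 averaged 67.1 ± 6.59 TPM in series 1 (SD, n = 3) and 113.5 ± 7.81 TPM in series 2 (SD, n = 2), a ratio of 1.69. Tet2 averaged 15.2 ± 3.31 TPM and 9.22 ± 0.88 TPM, a ratio of 0.605. Dnmt1 had a ratio of 1.21, Dnmt3b of 1.42 and Tet1 of 1.28. No test was made of this division, in which the 2 libraries of series 2 are all from 8 h.

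Genes of DNA replication and proliferation were divided in the same way. All 14 S phase genes examined, with Pcna, the clamp that tethers Dnmt1 and many other proteins to replicating DNA, and Mcm2 to Mcm7 of the replicative helicase among them, were higher in both libraries of series 2 than in the 3 of series 1, beside 39.8% of all genes. Their sum was 1308 and 1316 TPM at 1 h, 1181 TPM for 8 h replicate 14, against 1940 TPM for 8 h replicate 13 and 2085 TPM for 8 h replicate 15. Uhrf1 per Pcna ranged from 0.215 to 0.240 in series 1 and was 0.295 and 0.242 in 8 h replicates 13 and 15. Dnmt1 per Pcna ranged from 0.354 to 0.376 in series 1 and was 0.317 and 0.310 in series 2, so Dnmt1 was higher in series 2 in TPM and lower per Pcna. The part of proliferation in the levels of Uhrf1 and Dnmt1 was not tested. Of the 14 genes, 0 were called between 8 h and 1 h with limma and 0 had an unadjusted p under 0.05 (beside 12.3% of all genes), and their median log2 fold change was 0.33. The share of mitochondrial transcripts also differed, with between 10.7% and 11.1% of TPM in series 1 and 6.23% and 6.30% in series 2. With those genes removed and TPM rescaled, the directions of all 9 members were as before.

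**Figure D4:**
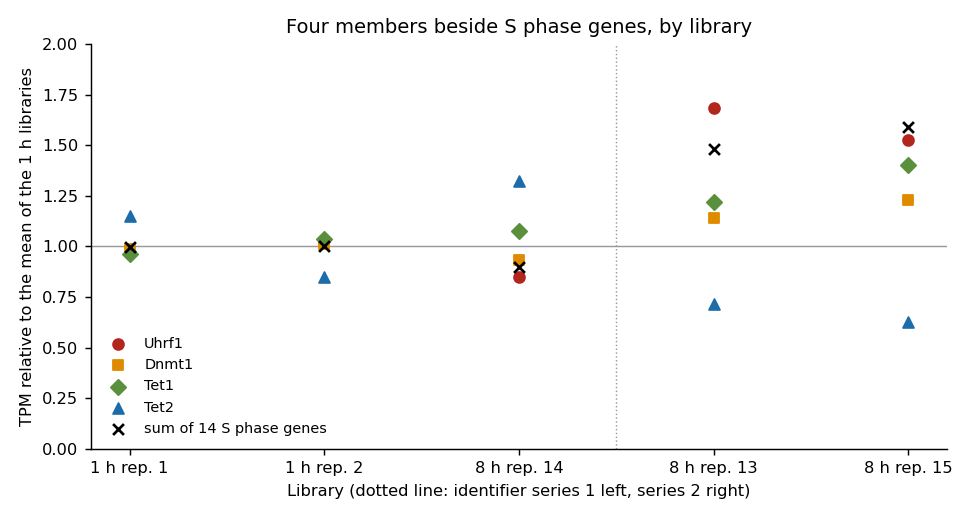
TPM of Uhrf1, Dnmt1, Tet1 and Tet2 and the summed TPM of 14 S phase genes in each library, relative to the mean of the 1 h libraries, with identifier series 1 left and series 2 right of the dotted line. Uhrf1, Dnmt1, Tet1 and the S phase sum are above 1 and Tet2 is below 1 in both libraries of series 2, while Uhrf1, Dnmt1 and the S phase sum are below 1 in 8 h replicate 14.

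Of 45 other genes of the cycle, 41 had a mean of at least 1 TPM. Limma called 0 of them between 8 h and 1 h, and an unadjusted p under 0.05 was found for 4 that were higher (beside 9.52% of all genes) and 0 that were lower (beside 2.82%). Their median log2 fold change was 0.13, beside 0.10 for all genes. The 4 were Uhrf2, Mbd4, Mbd2 and Ahcy. All of them were also higher in both libraries of series 2 than in the 3 of series 1 (beside 39.8% of all genes). With the identifier series as a term, 19 of the 41 genes were higher and 22 lower at 8 h. Their median log2 fold change was then -0.0098, beside 0.013 for all genes. Uhrf2, the paralog of Uhrf1, stood at 34.5 and 33.8 TPM after 1 h, against 45.6, 43.6 and 50.1 TPM after 8 h (replicates 13, 14 and 15), with all 8 h libraries higher. The log2 fold change came to 0.43 ± 0.11 (limma, SE, adjusted p = 0.3). Unlike Uhrf1, it was higher in 8 h replicate 14 than in both 1 h libraries, and Uhrf1 was 1.98 and 2.16 times Uhrf2 at 1 h and 1.38 times in that replicate. Mbd4, a glycosylase that reads and repairs methylated sites, had 4.06 ± 0.536 TPM at 1 h and 6.39 ± 0.808 TPM at 8 h (limma, adjusted p = 0.363). Mbd2, a methyl-CpG-binding protein of NuRD in place of Mbd3, had 35.3 ± 4.15 TPM and 47.9 ± 6.26 TPM (limma, adjusted p = 0.371). Ahcy, which clears the product of methyl transfer, had 80.8 ± 1.17 TPM and 98.9 ± 9.64 TPM (limma, adjusted p = 0.402).

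By role, 4 of 6 further writer genes were tested and Hells, the remodeller that opens chromatin for methylation, stood at 23.2 and 18.5 TPM after 1 h, against 34.02, 21.8 and 39.7 TPM after 8 h, with replicate 14 again beside the 1 h libraries. Dnmt3l and Dppa3 were listed at 0 TPM in all libraries. Of 13 further eraser and repair genes 11 were tested. All 8 further genes listed as readers, all 11 NuRD partners and all 7 methyl donor and cofactor genes were tested. Of the NuRD partners of Mbd3, 8 of 11 were higher in both libraries of series 2 than in the 3 of series 1 (beside 39.8% of all genes), and Chd4, the main remodelling ATPase, ranged from 176.2 to 187.9 TPM. Idh1, which makes the co-substrate of the TET enzymes, had between 268.4 and 272.8 TPM in series 1 and 394.0 and 387.8 TPM in series 2.

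The genes with the nearest profiles over the 5 libraries were found for the member with the widest range among the writers and among the erasers, and for Uhrf1. Likeness was the root mean square difference of centred log2(TPM + 1) values, over 11558 protein-coding genes. Nearest to Uhrf1 were Impdh1 (0.034), Cdk20 (0.036) and Manba (0.036). Nearest to Tet2 were Rgs16 (0.048), Ppip5k1 (0.058) and Fam227a (0.068), and nearest to Dnmt3b were Pcyox1 (0.019), Zbtb43 (0.025) and Taf1 (0.028). These values describe likeness over 5 libraries and are not tested. At the low level of Dnmt3b the pseudocount of 1 narrows its range, so its likeness to these genes, all of higher TPM, depends in part on that setting.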

How the data were processed

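RNA-seq libraries (TruSeq stranded mRNA, poly-A selection, paired reads) were made from 5 samples, 2 at 1 h and 3 at 8 h. Groups, replicate numbers and identifier series come from the labels. The study defines a biological replicate of these cells as 1 animal. The reads were aligned by the authors to GRCm38 with STAR in the nf-core/rnaseq pipeline. The submitters' notes name bcl2fastq 2.19.1.403, CASAVA and DESeq2.

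For each library the authors deposited TPM, FPKM and per-base coverage (signal) per gene, in the layout of StringTie's output. Their program and version, not given in the sources used here, could not be checked. Rows sharing a gene identifier were added up in TPM, FPKM served as an alternative and coverage was not used. Depth per gene is not given by TPM. Whole read counts for 7599 genes are in a deposited table, filtered by a rule that the labels and methods do not state. Its columns sum to between 13988166 and 18572154 counts over those genes. No value column was left unassigned (0). Replicate columns differed by more than sampling noise (lowest chi-square divided by its degrees of freedom, 10.2).

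TPM was tested with limma 3.58.1 (R 4.3.3) with a trended prior on log2(TPM + 1), keeping genes whose mean TPM reached 1. Fold changes on this scale understate those of low genes. Counts were tested with edgeR 4.0.16 (quasi-likelihood, TMM, filterByExpr). The SE printed for edgeR was derived as the absolute log2 fold change divided by the square root of the F statistic. Both tests were two-sided, adjusted by Benjamini-Hochberg, and also run on simulated data. The simulated data had no identifier series, and the TPM noise was scaled down from that of the fit. They therefore do not show how the tests perform on these libraries. Calls needed an adjusted p no higher than 0.05 together with an absolute log2 fold change above 1, as in the study. DESeq2 1.42.0 and limma-voom were alternatives. Named genes are the 9 members, the genes of the lists and the 3 genes with the nearest profiles (protein coding, symbol neither Gm and a number nor ending in Rik). The members and lists were chosen with earlier results of these data known. Coordinates are those of the deposited tables, and for 7 of 9 members they equal GENCODE vM21. RefSeq promoters (GRCm38.p6) matched 9 of 9 members by symbol. Some genes of the lists are not reported here.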

Additional observations from a re-analysis of the deposited data

How the results depend on the processing

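The count of members called was 0 under all alternatives in both tables. Over all genes the limma count of 6 became 0 with no filter (2371 genes with an unadjusted p under 0.05), 19 with the identifier series as a term, and between 0 and 568 on leaving out 1 library, where 568 belonged to the fit lacking 8 h replicate 14, 1 to that lacking 8 h replicate 13, and 0 to those lacking 1 h replicate 1, 1 h replicate 2 or 8 h replicate 15 (773, 670 and 856 genes with an unadjusted p under 0.05). The cause was not tested, except that the filter sets how many genes are tested. The edgeR count of 0 became 145 in identifier series 1 alone by column name. On TPM, 4 members changed direction, none of them called, with the series as a term and in series 1 alone, which gave Dnmt1 -0.098, Dnmt3b -0.086, Uhrf1 -0.23 and Tet2 0.39. On counts, leaving out 1 column gave log2 fold changes of Dnmt3a from -0.17 to 0.022, of Tdg from -0.091 to 0.040 and of Mbd3 from -0.040 to 0.14. The other alternatives kept each member's direction (100 values on TPM and 85 on counts kept direction and call, 8 and 6 reversed). Adjusted p-values of Uhrf1 on TPM ranged from 0.0102 to 0.856 and those of Tet2 from 0.0856 to 0.997. The members' shares of their summed level are equal on FPKM and TPM by construction, so FPKM was no check of them. No paired analysis was possible because the groups share no replicate number.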
